A study of Mus musculus with 24 samples.

Results

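The genes described here are the nuclear receptor PPARalpha and 38 others that encode the liver's machinery for taking up, activating and oxidising fatty acids. They were chosen as the rows of a mouse liver mRNA count table whose gene symbol is on a list of 39. All 39 were among the 22429 genes of the table, and all 39 passed the filter on low counts that left 12690 genes for testing. By role they are 2 regulators, 3 genes of uptake and activation, 5 of carnitine transport and transfer, and 9 of mitochondrial beta-oxidation. A further 5 are auxiliary enzymes for unsaturated fatty acids, 6 were grouped as peroxisomal, and 5 are acyl-CoA thioesterases. The rest are 3 other targets of PPARalpha and 1 enzyme of ketogenesis.

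Livers came from male F1 hybrid mice of the strains C57BL6J and FVBN, with 4 libraries of polyadenylated RNA in each of 6 groups. Wild-type mice (Ercc1 +/+) were fed freely to 16 weeks or to 104 weeks of age, or restricted by 30% and studied at 16 weeks. The mutant (Ercc1Δ/−) combines a truncated with a null allele of Ercc1, a gene of DNA repair, in every tissue, and its ageing is premature. Mutant mice were studied on free feeding at 7 weeks and at 16 weeks, and at 16 weeks under 30% restriction. Every group lived on AIN93G synthetic pellets, in individual cages. Daily intake averaged 3.0 g in adult wild-type mice and 2.3 g in mutant mice, and restricted rations were 2.1 g and 1.6 g. The mutant thus ate less than the wild type on either regime. Restriction began at 7 weeks of age and deepened in weekly steps. Rations were given shortly before the dark phase, and on the day of sacrifice no food was given before collection. Samples are numbered within a group, but no label says that each came from its own animal. The p-values therefore reflect only the spread between samples, which may be technical.

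PPARalpha is a receptor for fatty acids that, paired with a retinoid X receptor, binds DNA at repeats of AGGTCA and switches on genes of fat burning, above all in the fasted liver. Long-chain fatty acids are bound in the cytosol by Fabp1, joined to coenzyme A by acyl-CoA synthetases, carried into mitochondria as carnitine esters and shortened by rounds of dehydrogenation, hydration and thiolysis. Very long chains are first shortened in peroxisomes, thioesterases release free fatty acids from coenzyme A, and the acetyl-CoA left over in fasting is made into ketone bodies.

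Because the genes share a regulator, their promoters were searched for the response element of PPARalpha, the 13 letters AGGTCANAGGTCA on either strand. The search covered 250 bases before to 50 after each start site in RefSeq (GRCm38.p6), where 34 of the 39 genes had an entry, some of them for more than 1 start. A gene was counted once if any of its entries matched, among the members as among all 27025 genes with an entry. No member held the element without a mismatch (13 of all genes, 0.0481%). With 1 mismatch allowed, 1 of the 34 held it, Fabp1, against 174 genes in all (0.644%). With 2 allowed it was 4 of the 34, Fabp1, Acot4, Creb3l3 and Slc25a20, against 4.4% of all genes, and with 3 allowed 12 of the 34, against 27.3%. Other receptors, HNF4A among them, bind repeats of this kind, and a match of letters is not a measured site. The best matches upstream of a start site are shown with the matched letters in capitals. They lie at chr6:71199792-71199844 on the plus strand (67 to 55 bases before the start of Fabp1), chr12:84038346-84038378 on the plus strand (13 to 1 bases before that of Acot4) and chr10:81092768-81092820 on the minus strand (209 to 197 bases before an inner start of Creb3l3). That inner start lies 6283 bases inside the gene as annotated by GENCODE, and before the outer start of Creb3l3 the best match had 4 mismatches. In Fabp1 and Acot4 the element reads on the strand opposite to the gene.
Fabp1: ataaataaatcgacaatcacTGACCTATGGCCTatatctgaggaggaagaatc
Acot4: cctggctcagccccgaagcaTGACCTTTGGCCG
Creb3l3: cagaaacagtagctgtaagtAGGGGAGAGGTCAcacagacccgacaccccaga

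Depth ran from 13.3 to 20.6 M counts per library. Ercc1, the targeted gene, averaged 2.59 to 3.52 CPM (counts scaled to library size) in the wild-type groups and 1.51 to 1.61 CPM in the mutant groups, without reads being assigned to an allele. Its difference passed the threshold under restriction (log2 fold change -1.18 ± 0.27 (SE), edgeR adjusted p = 0.0033) and not on free feeding (-0.78 ± 0.28, adjusted p = 0.0754). Liver markers were high throughout, with albumin alone at 3.77% to 12.0% of counts, while the fat cell marker Lep had no count in any library, and Adipoq and Plin1 were at 0 in 17 of the 24 libraries each. The whole list of 10 fat cell markers summed to between 406 and 4722 CPM over the libraries. Most of it came from Pck1 and Car3, which hepatocytes also express (means of 2008 and 1350.4 of 3589 CPM in freely fed wild-type liver at 16 weeks). In such bulk tissue fewer cells of a type and less RNA per cell cannot be told apart.

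Compared per kilobase of exon in freely fed wild-type liver at 16 weeks, the level of Fabp1 (9439.6 CPM per kb) was the highest of the 39. It was followed by the thiolases Acaa1b (1024) and Acaa2 (575) and the very-long-chain synthetase Slc27a2 (453). At the other end stood Ppara itself (21.3 CPM per kb), the pantetheinase Vnn1 (19.1), carnitine acetyltransferase Crat (16.0) and the pyruvate dehydrogenase kinase Pdk4 (0.862). Together the 39 genes made up 20899 ± 2418 CPM (SD, n = 4) in young wild-type liver. The sum was 15702 ± 2349.5 CPM in restricted and 12889 ± 1513 CPM in old wild-type liver. For the mutant it reached 14867 ± 1298 CPM at 7 weeks and 12233 ± 702 CPM at 16 weeks, and restriction left it at 9714 ± 967 CPM. Without Fabp1 the same sums were 15679, 13229 and 8881 CPM in the wild type and 11680.1, 10213 and 9075 CPM in the mutant. Some members are near copies of each other. Of the 50-base stretches in its annotated transcripts, Acaa1b shared 30.5% with its paralog Acaa1a, and the thioesterases Acot1, Acot2, Acot3 and Acot5 shared between 19.1% and 27.7% with other genes, among them each other and the gene model Gm49366. Hadhb shared 19.7%, mostly with the gene model Gm13910. How reads with several matches were counted is not given in the sources used here, so the split between these copies is uncertain.

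**Figure D1:**
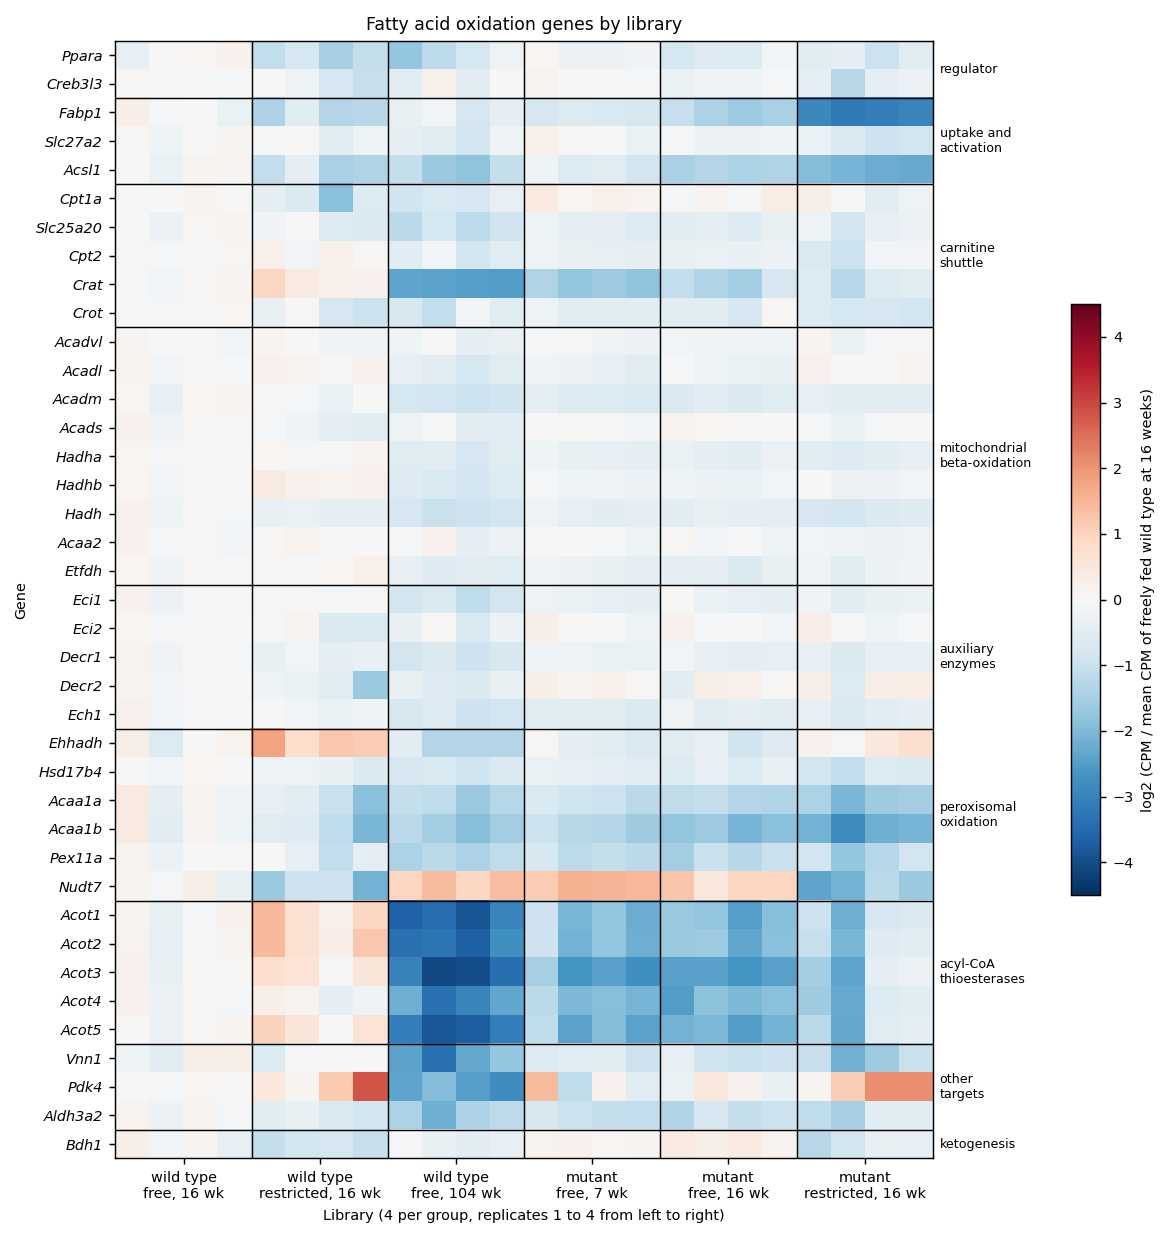
Level of each of the 39 genes (rows, by role) in each of the 24 libraries (columns, by group), as log2 of the CPM over the mean CPM of the freely fed wild type at 16 weeks. Blue cells are lower and red cells higher than that mean. The rows marked carnitine shuttle are the genes of carnitine transport and transfer. The thioesterase block is the darkest in the 4 libraries of 104 weeks, and Nudt7 stands out as red in the freely fed mutant and old groups.

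The mutant was first compared with the wild type in freely fed mice at 16 weeks. Of the 39 genes, 19 were lower in the mutant and 1 was higher (edgeR adjusted p under 0.05). Among all genes tested, 4.85% were lower and 5.1% higher. The median log2 fold change of the members was -0.42, and that of all genes tested 0.02. Within the wild-type group replicate 2 was the lowest for 31 of the 39 genes and replicate 1 the highest for 24. Both shares were larger than over all genes tested. The same wild-type libraries also served the comparisons of age and of diet in the wild type. By estimate the falls were deepest in the 5 thioesterases and the peroxisomal thiolase Acaa1b, smaller in Acsl1, Fabp1, Acaa1a and Crat, and shallow in the mitochondrial spiral. In the mutant all 12 macrophage and Kupffer cell markers were tested and 8 were higher, with summed levels of 185 to 368 CPM against 121 to 182 CPM. Summed pericentral markers stood at 6788 to 8740 CPM against 5871 to 6582 CPM (3 of 12 higher), and summed periportal markers at 64988 to 77452 CPM against 77816 to 97129 CPM (1 of 12 higher, 1 lower). Most of the pericentral sum was Cyp2e1 (means of 6327 CPM against 4919 CPM). Albumin, also on the hepatocyte list, made up most of the periportal sum (means of 61091 CPM against 72137 CPM). Of 9 hepatocyte markers 2 were lower, and their sums, 106395 to 130959.7 CPM against 131943 to 150297 CPM, did not overlap. Of 5 red cell markers 4 were lower, with summed levels of 357 to 733 CPM against 1258 to 2287 CPM. Their part in the result was not tested.

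Neither regulator passed the test. Ppara was measured at 62.9, 82.5, 87.8 and 93.8 CPM in the wild type and at 47.0, 55.0, 53.9 and 75.2 CPM in the mutant, with overlap (log2 fold change -0.50 ± 0.22, adjusted p = 0.168). With only the 8 libraries compared in the fit its adjusted p was 0.0397. Creb3l3, a membrane-bound transcription factor that works with PPARalpha, had -0.18 ± 0.20.

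In uptake and activation, 2 of 3 genes fell. The wild-type libraries held 6435, 4979, 5253 and 4213 CPM of Fabp1, the main cytosolic carrier of fatty acids in hepatocytes, and the mutant libraries 2556, 1942, 1681 and 1903 CPM. Every mutant library lay below every wild-type library, 2.58-fold lower on fitted values (-1.37 ± 0.17, adjusted p = 7.45e-06). Acsl1, the main long-chain acyl-CoA synthetase of liver, stood at 1725, 1433, 1920.0 and 1921 CPM in the wild type and at 633, 706, 655 and 687 CPM in the mutant. The mutant values were again all lower and close together (-1.38 ± 0.20, adjusted p = 4.71e-05). Slc27a2 differed by less (-0.19 ± 0.15, adjusted p = 0.481).

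Of the 5 genes of carnitine transport and transfer 1, Crat, fell, from 86.0 ± 6.54 to 38.4 ± 9.63 CPM (-1.16 ± 0.18, adjusted p = 8.67e-05). Slc25a20, the carrier that exchanges carnitine for acylcarnitine across the inner membrane, missed the threshold without overlap of the groups (-0.45 ± 0.15, adjusted p = 0.0585). It passed with DESeq2 (0.0424), with only the 8 libraries compared in the fit (0.0105) and without wild-type replicate 2 (0.0441). Cpt2, the carnitine palmitoyltransferase of the inner membrane (-0.30 ± 0.15, adjusted p = 0.237), passed with only those 8 libraries (0.0347). Cpt1a, which makes acylcarnitine at the outer mitochondrial membrane and limits the rate of entry, was not called. It held 262, 274, 308 and 276 CPM in the wild type against 265, 302, 266 and 349.6 CPM in the mutant (0.08 ± 0.21, 95% interval -0.32 to 0.48). In the mitochondrial spiral 4 of 9 genes fell, and none by more than 0.57 on the log2 scale. Acadm, the medium-chain acyl-CoA dehydrogenase, was measured at 446, 329, 453 and 458 CPM in the wild type and 272, 307, 271 and 288 CPM in the mutant, without overlap (-0.57 ± 0.11, adjusted p = 9.05e-04). Etfdh, which passes electrons from the dehydrogenases to the respiratory chain (-0.46 ± 0.11), Hadh, the short-chain hydroxyacyl-CoA dehydrogenase (-0.42 ± 0.10), and Hadha, the large subunit of the trifunctional protein (-0.36 ± 0.10), fell with it. For Hadha, leaving out replicate 1 of the wild type ended the call (adjusted p = 0.052), as did leaving out mutant replicate 2 (0.0503) or 3 (0.0588). Of the auxiliary enzymes, the dienoyl-CoA isomerase Ech1 (-0.42 ± 0.11) and the reductase Decr1 (-0.32 ± 0.10) fell. The call of Ech1 was lost without wild-type replicate 1 (adjusted p = 0.0566). That of Decr1 was lost when any of 6 of the 8 libraries was left out, all except wild-type replicate 2 and mutant replicate 1, with an adjusted p of up to 0.148.

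Peroxisomal genes moved in both directions. Acaa1b, a peroxisomal thiolase, went from 2009 ± 529 to 564 ± 75.2 CPM (-1.83 ± 0.26, adjusted p = 4.13e-05) and its paralog Acaa1a from 1162 ± 288 to 497 ± 43.1 CPM (-1.22 ± 0.23). Pex11a, which promotes peroxisome division (-1.19 ± 0.20), and Hsd17b4, the multifunctional enzyme for branched chains (-0.48 ± 0.12), fell as well. Ehhadh, the other multifunctional enzyme, was measured at 416, 226, 347 and 386 CPM in the wild type and 248, 264, 185 and 232 CPM in the mutant (-0.57 ± 0.23, adjusted p = 0.128, and 0.0401 with only the 8 libraries compared). Nudt7, a peroxisomal hydrolase that breaks down coenzyme A and its esters, was the member that rose. Its wild-type libraries held 164, 143, 181 and 121 CPM and its mutant libraries 363, 217, 299 and 299 CPM, without overlap (0.95 ± 0.24, adjusted p = 0.0129). This call was lost without wild-type replicate 4 (0.86, adjusted p = 0.0516) or mutant replicate 1 (0.84, adjusted p = 0.0542).

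All 5 thioesterases fell. Acot1 to Acot5 lie side by side on chromosome 12 (GRCm38), from 83987861 at the start of Acot2 to 84076020 at the end of Acot5, and encode enzymes of cytosol (Acot1), mitochondria (Acot2) and peroxisomes (Acot3, Acot4, Acot5). Acot3 held 183, 127, 164 and 163 CPM in the wild type and 29.5, 29.3, 24.6 and 29.0 CPM in the mutant. The mutant was 5.66-fold lower (-2.50 ± 0.37, adjusted p = 9.39e-05), the largest change among the members in this comparison. Acot5 held 125, 98.5, 125 and 129 CPM against 27.1, 29.3, 21 and 27.4 CPM (-2.19 ± 0.33), and Acot1 333, 246, 299 and 350.2 CPM against 95.5, 90.6, 55.1 and 80.8 CPM (-1.93 ± 0.32). In each of the 3 genes the mutant libraries lay below every wild-type library. Acot2 and Acot4 had -1.86 ± 0.32 and -2.04 ± 0.32. Among the other targets Aldh3a2, a fatty aldehyde dehydrogenase, fell (-1.01 ± 0.21). Vnn1, a pantetheinase, missed the threshold (-0.77 ± 0.26, adjusted p = 0.0585). It passed with DESeq2 (0.0316), with only the 8 libraries compared (0.0135), and without wild-type replicate 2 (0.0411) or mutant replicate 1 (0.0426). Bdh1, which interconverts the ketone bodies acetoacetate and beta-hydroxybutyrate, held 251, 192, 225 and 159 CPM against 266, 247, 277 and 233 CPM (0.31 ± 0.16, adjusted p = 0.248).

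**Figure D2:**
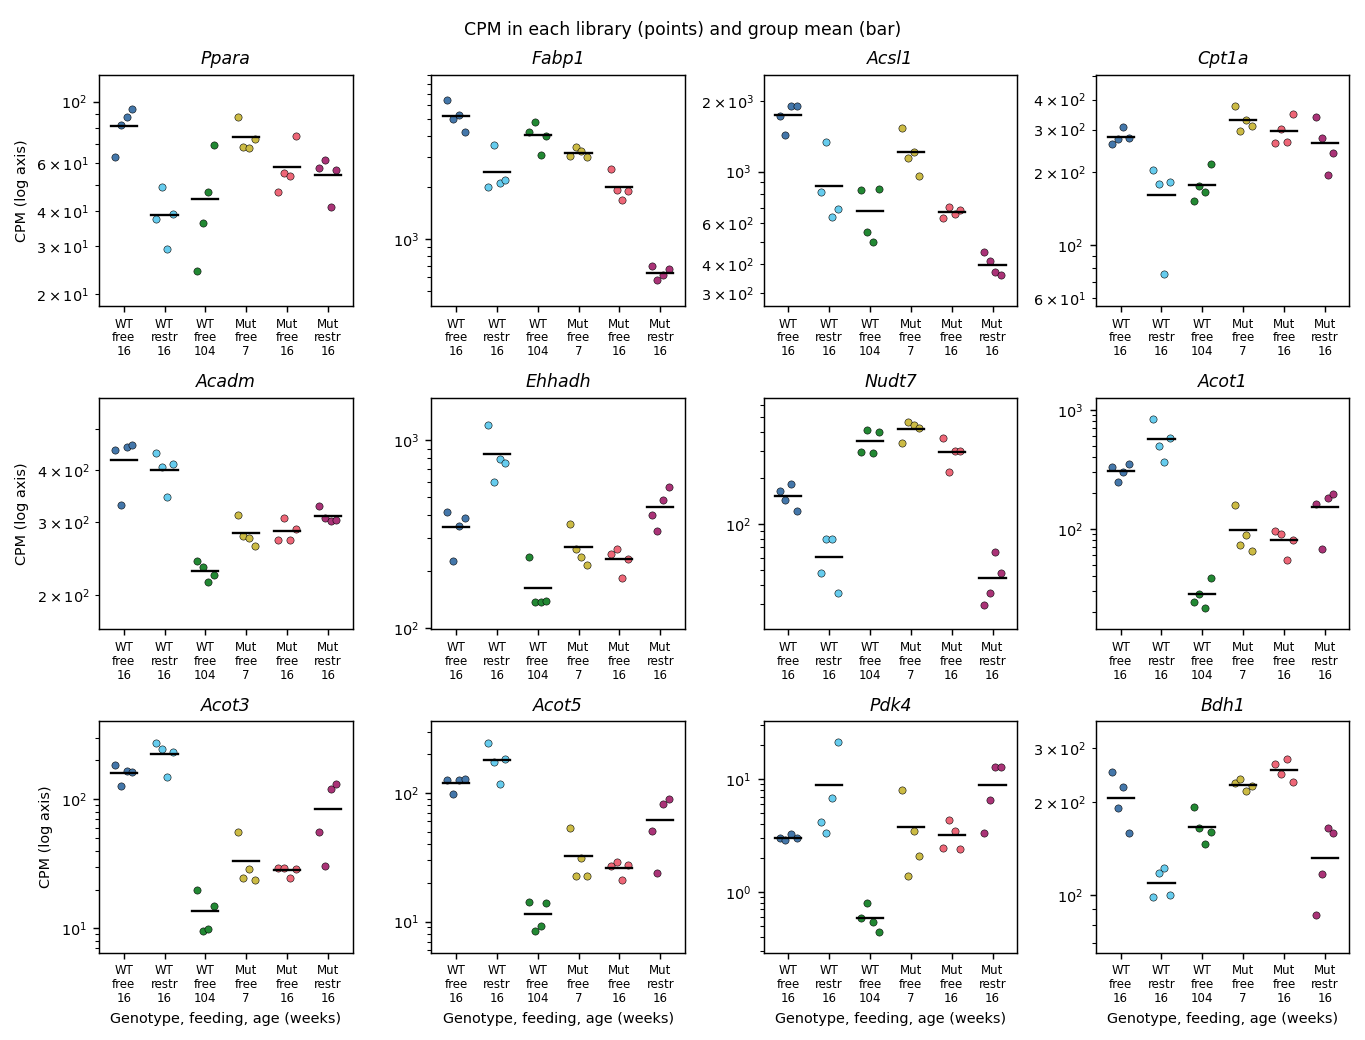
CPM of 12 members in each library (points; log axis) with the group mean (bar), for the 6 groups of 4 libraries (WT, wild type; Mut, mutant; restr, restricted; age in weeks). Fabp1 is lowest in the restricted mutant, at 576 to 693 CPM, and Acot1, Acot3 and Acot5 are lowest at 104 weeks.

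Between the restricted groups, 23 of the 39 genes were lower in the mutant and 2, Cpt1a and Decr2, were higher. Of all genes tested, 8.7% were lower and 9.58% higher. With upper-quartile scaling the calls over all genes shifted from 1216 higher and 1104 lower to 1479 and 805, and those of the members became 2 higher and 18 lower. When only the 8 libraries of this comparison entered the fit, 0 members were called higher and 10 lower, and 877 genes in all in place of 2320. The members' median was -0.37 and that of all genes -0.03. All 12 macrophage markers were higher here (summed level 289.7 to 401 CPM against 97.2 to 171 CPM) and 5 of 9 hepatocyte markers were lower (1 higher; summed level 100239 to 131270.3 CPM against 140819 to 182936 CPM). Of 12 periportal markers 6 were higher and 1 lower, and of 12 pericentral markers 5 were higher and 1 lower, with overlapping sums. Their part in the result was not tested.

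Fabp1 stood at 2009.8, 3543, 2118 and 2221 CPM in the restricted wild type and at 693, 576, 614 and 671 CPM in the restricted mutant. The gap was 3.87-fold, with no overlap (-1.95 ± 0.18, adjusted p = 6.35e-08). Acsl1 was measured at 819, 1337, 637 and 693 CPM against 452, 414, 369.6 and 360.5 CPM (-1.13 ± 0.20, adjusted p = 3.00e-04). Every mutant value was again below every wild-type value. Slc27a2 fell too (-0.50 ± 0.15, adjusted p = 0.0229), a call lost without wild-type replicates 1 or 2 or mutant replicates 3 or 4 (adjusted p up to 0.0863). The call was also lost with only the 8 libraries compared in the fit (edgeR adjusted p = 0.13).

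Cpt1a was among the genes that were higher. Its restricted wild-type libraries held 205, 178, 75.6 and 182 CPM and the mutant ones 339, 277, 195 and 241 CPM (0.72 ± 0.21, adjusted p = 0.017). The groups overlapped, and wild-type replicate 3 lay far below the rest; without it the log2 fold change was 0.48 with the call kept, and without mutant replicate 1 it was 0.57 with the call lost (adjusted p = 0.0691). Decr2, the peroxisomal dienoyl-CoA reductase, averaged 120.0 ± 32 against 74.6 ± 27.7 CPM (0.69 ± 0.23, adjusted p = 0.0355). It lost its call without any one of wild-type replicates 3 and 4 and mutant replicates 1, 3 and 4 (log2 fold change 0.46 without wild-type replicate 4). Neither Cpt1a (edgeR adjusted p = 0.142) nor Decr2 (0.192) was called with only the 8 libraries compared in the fit. Acadm held 439.7, 406, 344 and 412 CPM against 327, 307, 302 and 303 CPM, without overlap (-0.37 ± 0.11, adjusted p = 0.0175, and 0.0521 without wild-type replicate 1). In the mitochondrial spiral 5 of 9 genes fell, the others being Hadha (-0.49 ± 0.10), Hadhb (-0.40 ± 0.10), Hadh (-0.33 ± 0.10) and Etfdh (-0.35 ± 0.11). Hadh lost its call without mutant replicate 2 (adjusted p = 0.0534), and Etfdh without it (0.0907) or wild-type replicate 4 (0.0799). Hadhb lost its call with only the 8 libraries compared in the fit (edgeR adjusted p = 0.101). Ppara had 37.6, 49.0, 29.2 and 39.2 CPM in the restricted wild type and 57.6, 61.6, 41.5 and 56.3 CPM in the restricted mutant, a difference that did not pass (0.49 ± 0.23, adjusted p = 0.14).

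In the peroxisomal group 5 of 6 genes fell, while the peroxisomal Decr2, grouped with the auxiliary enzymes, was higher. Ehhadh held 1202, 599.9, 797 and 755 CPM in the restricted wild type and 397, 327, 479.7 and 562 CPM in the restricted mutant. All the mutant values were lower (-0.93 ± 0.23, adjusted p = 0.00681). Nudt7, which was higher in the freely fed mutant, stood at 47.9, 79.2, 79.2 and 35.0 CPM against 29.2, 35.1, 65.3 and 47.9 CPM (-0.44 ± 0.25, adjusted p = 0.222). The 5 thioesterases fell again. Acot1 held 837, 492, 363 and 581 CPM against 161, 67.1, 183 and 195 CPM (-1.91 ± 0.32, adjusted p = 2.19e-04), and Acot5 243, 173, 118 and 182 CPM against 51.0, 24, 82.2 and 90.3 CPM (-1.53 ± 0.32). Acot3 held 270.5, 246, 148 and 233 CPM against 55.4, 30.4, 119 and 131 CPM (-1.42 ± 0.35). None of these pairs of groups overlapped, although in the mutant replicate 2 lay well below the other libraries in all 3. The free-feeding and restricted comparisons of genotype share no library. In both of them 17 of the 39 genes were called lower in the mutant, beside 305 of all 12690 tested (2.4%): Fabp1, Acsl1, Crat, Acadm, Hadha, Hadh, Etfdh, Ech1, Hsd17b4, Acaa1a, Acaa1b, Pex11a and the 5 thioesterases. Of these, Ech1, Pex11a, Acaa1a and Acot4 lost the restricted call without wild-type replicate 1 (adjusted p = 0.0807, 0.0551, 0.0635 and 0.0559). Without mutant replicate 2 Ech1, Acaa1a and Acot4 lost it (0.0813, 0.0538 and 0.057). Ech1 (0.0523) and Acaa1a (0.0556) lost it without wild-type replicate 2, Ech1 without mutant replicate 3 (0.0556) and Acot4 without mutant replicate 1 (0.0681). With only the 8 libraries compared in the fit, Acadm (edgeR adjusted p = 0.125), Hadh (0.158), Etfdh (0.184), Ech1 (0.169) and Hsd17b4 (0.133) lost it. So did Acaa1a (0.116), Pex11a (0.12), Acot3 (0.0641) and Acot4 (0.104). Upper-quartile scaling ended the restricted call of Acadm (0.0529), Hadh (0.0566), Etfdh (0.0715) and Ech1 (0.077).

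Ageing of the wild type was read on free feeding. The young libraries were also the wild-type libraries of the genotype comparison on free feeding, so the results of these comparisons are not independent. At 104 weeks 28 of the 39 genes were lower than at 16 weeks and 1, again Nudt7, was higher, against 5% lower and 5.13% higher of all genes tested. The median of the members was -0.78 and that of all genes 0.02. In 29 of the 39, each of the 4 old libraries lay below each of the 4 young ones, which held for 8.73% of all genes tested. Markers of B and plasma cells summed to 43.3 to 51.7 CPM at 104 weeks against 4.79 to 11.2 CPM (3 of 3 tested higher). The macrophage markers summed to 178 to 343 CPM against 121 to 182 CPM (5 of 12 higher). Albumin took 3.77% to 5.88% of counts against 6.42% to 7.72%, and mitochondrial genes 8.6% to 10.4% against 10.7% to 11.8%. Of 9 hepatocyte markers 2 were higher and 0 lower, with summed levels of 107608 to 179513 CPM against 131943 to 150297 CPM. Their part in the result was not tested.

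Ppara was itself lower in old liver, at 24.3, 36.4, 47.1 and 69.6 CPM. The old libraries were widely spread and overlapped the young ones (-0.88 ± 0.23, adjusted p = 0.0137). The call was lost when only the 8 libraries compared entered the fit (adjusted p = 0.0783). Fabp1 differed little, at 4181, 4785, 3079.6 and 3989 CPM (-0.38 ± 0.17, adjusted p = 0.164), while Acsl1, at 830.3, 550.3, 497 and 841 CPM, fell by 1.36 ± 0.20 on the log2 scale (adjusted p = 7.83e-05). Of the 5 genes of carnitine transport and transfer 4 fell. Crat went from 86.0 ± 6.54 to 15.8 ± 0.709 CPM, a 5.45-fold drop with an adjusted p of 4.55e-09, and Slc25a20 from 112 ± 12.4 to 55.5 ± 7.73 CPM. Cpt1a stood at 152, 175, 166 and 216 CPM, below every young library (-0.66 ± 0.21, adjusted p = 0.0416). Its call and that of Cpt2 (-0.47 ± 0.15, adjusted p = 0.0497) were each lost in 7 of the 8 fits that left out 1 library, all except that without old replicate 4 for Cpt1a and old replicate 2 for Cpt2, with adjusted p up to 0.126 and 0.159.

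In the mitochondrial spiral 6 of 9 genes fell, by 0.49 to 0.89 on the log2 scale. Acadm was measured at 242, 234, 215 and 224 CPM (-0.88 ± 0.11, adjusted p = 6.10e-06), and the 4 values lay close together below the young ones. Hadh (-0.89 ± 0.10) and Hadhb (-0.69 ± 0.10) fell alongside it. Acadvl, Acads and Acaa2, also of the spiral, were not called, with -0.22, -0.30 and -0.12 (Acads passed without old replicate 2, adjusted p = 0.0348). The auxiliary enzymes Eci1 (-0.86 ± 0.12), Decr1 (-0.78 ± 0.10) and Ech1 (-0.78 ± 0.11) fell. So did 5 of the 6 genes grouped as peroxisomal. Ehhadh was at 239, 137, 138 and 139 CPM (-1.07 ± 0.23, adjusted p = 0.00392), where replicate 1 stood above the other 3 and overlapped the young group. Nudt7 rose to 294, 411, 289 and 402 CPM, above every young library (1.20 ± 0.25, adjusted p = 0.00255).

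The thioesterases showed the deepest falls of any role. Acot3 was down to 19.7, 9.57, 9.89 and 15.0 CPM (-3.56 ± 0.39, adjusted p = 3.55e-06), an 11.8-fold difference. Acot1 stood at 24.4, 28.4, 21.5 and 39 CPM (-3.44 ± 0.34) and Acot5 at 14.1, 8.46, 9.22 and 14 CPM (-3.39 ± 0.35). Acot2 and Acot4 had -3.23 ± 0.34 and -2.64 ± 0.33. On fitted values the 5 were between 6.24-fold and 11.8-fold lower. The other targets fell as well. Vnn1, which releases vitamin B5 and cysteamine, went from 46.1 ± 11.1 to 9.10 ± 3.81 CPM (-2.33 ± 0.28), and Aldh3a2 had -1.50 ± 0.21. Pdk4, the kinase that turns off pyruvate oxidation in fasting, was low throughout, at 3.00, 2.86, 3.23 and 3.02 CPM in the young and 0.582, 0.791, 0.538 and 0.437 CPM in the old group. Its change (-2.36 ± 0.68, adjusted p = 0.0303) rested on 31 counts over the old group. It lost the call in 7 of 8 fits without 1 library, all except that without young replicate 2, with an adjusted p of up to 0.0759. Bdh1, at 194, 165, 146 and 160.1 CPM, was not called (-0.32 ± 0.16, adjusted p = 0.229).

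**Figure D3:**
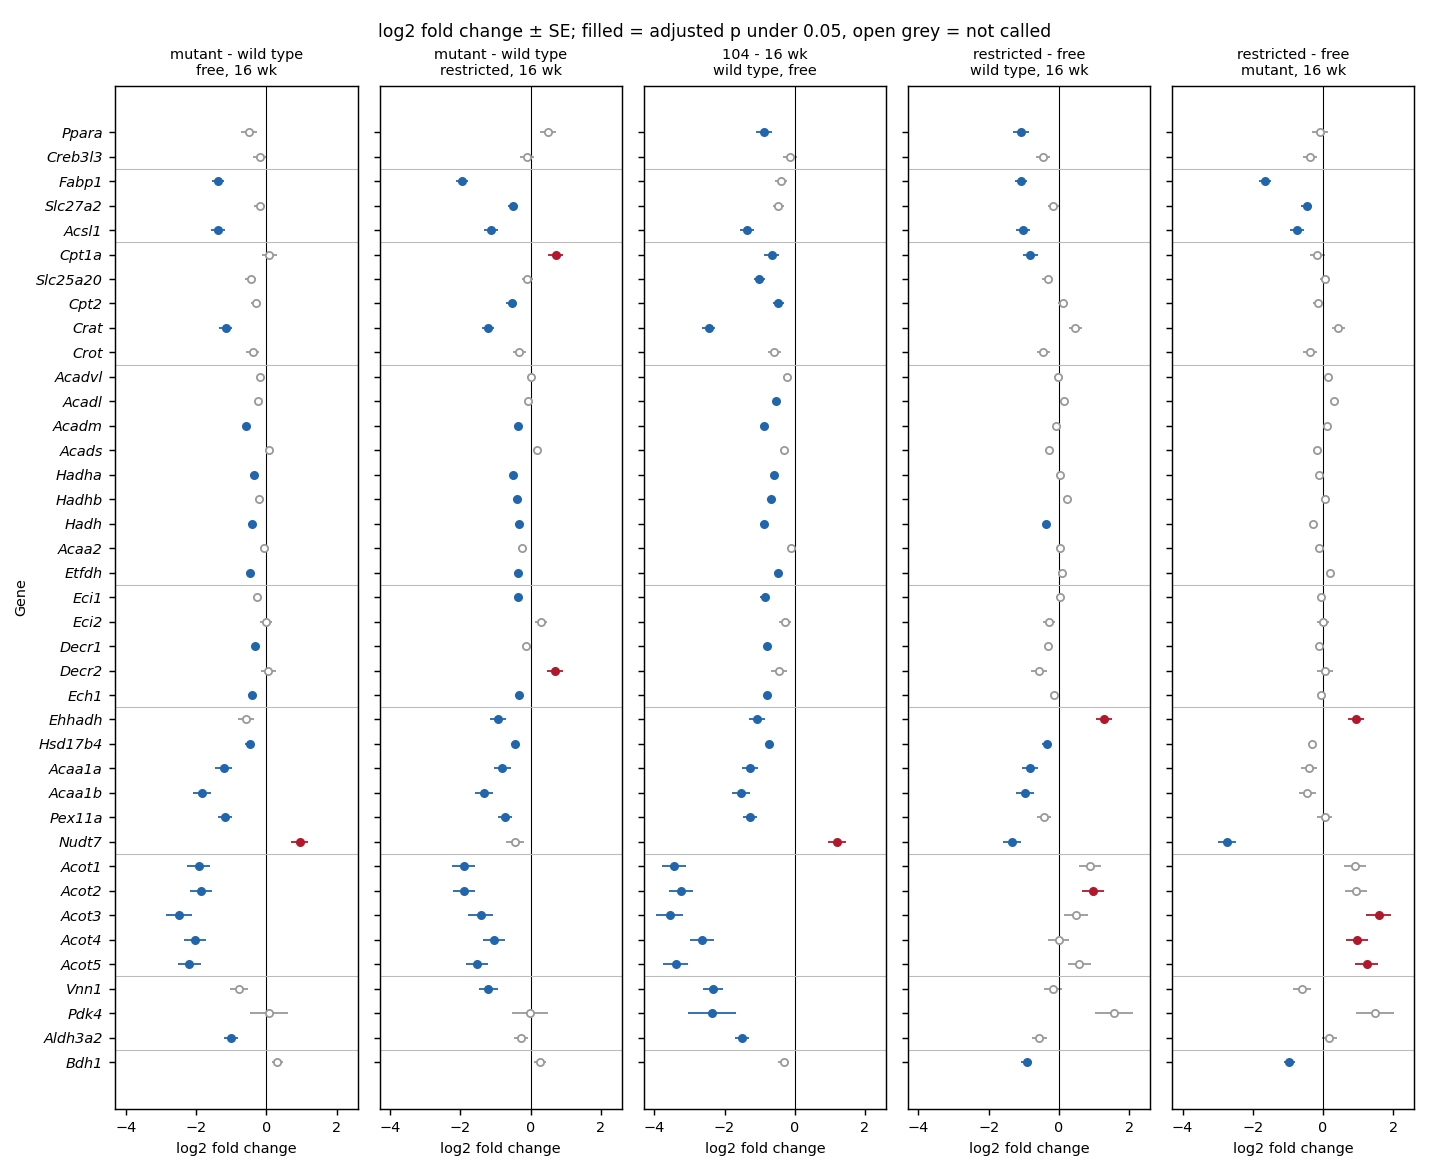
log2 fold change ± SE of each of the 39 genes in 5 comparisons of groups of 4 libraries, by role. Filled points are called (red higher, blue lower), and open grey points are not. Most blue points lie in the panels of genotype and age, and the thioesterases cross from below 0 in those panels to about 0 or above in the panels of restriction.

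The mutant at 16 weeks was then set directly against old wild-type liver, a comparison in which genotype and age cannot be told apart. Of the 39 genes 16 were higher in the mutant and 1, Fabp1, was lower, with 7.47% higher and 7.19% lower of all genes tested. The members' median was 0.38 and that of all genes 0.00. All 3 tested B and plasma cell markers, 4 of 5 red cell markers and 3 of 9 hepatocyte markers were lower in the mutant, 4 of 12 pericentral markers were higher, and their part in the result was not tested. Crat (1.28 ± 0.18), Vnn1 (1.56 ± 0.27), Acot1 (1.51 ± 0.32), Acot2 (1.38 ± 0.32), Hadh (0.47 ± 0.10), Hadhb (0.46 ± 0.10), Decr1 (0.47 ± 0.10) and Eci1 (0.59 ± 0.12) were among the higher genes. Cpt1a was higher too (0.74 ± 0.21, adjusted p = 0.0165), a call lost without old replicate 1 (0.68, adjusted p = 0.0614) or mutant replicate 4 (0.65, adjusted p = 0.0571). Pdk4 (2.43 ± 0.68, adjusted p = 0.0186) lost it without old replicate 3 (adjusted p = 0.0514) or mutant replicate 2 (0.0529). Acadm (0.31 ± 0.11, adjusted p = 0.0496) was not called in any of the 8 fits that left out 1 library, with an adjusted p between 0.0609 and 0.141. Fabp1 was 1.98-fold lower in the mutant (-0.99 ± 0.17, adjusted p = 2.98e-04). For Acsl1 the difference was -0.02 ± 0.20, with a 95% interval from -0.41 to 0.37.

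Within the mutant, 16 weeks were compared with 7 weeks. Only Acsl1 was called, as lower, among the 39 genes, with 0.331% of all genes tested called lower and 0.355% higher. The medians were -0.12 over the members and 0.00 over all genes. Summed cholangiocyte markers stood at 21.2 to 30.0 CPM against 36.8 to 39.5 CPM at 7 weeks, and fat cell markers at 1892 to 2935 CPM against 3211 to 4722 CPM, with 0 of 5 and 0 of 6 tested markers called. Their part in the result was not tested. Acsl1 held 1542, 1149, 1211 and 954 CPM at 7 weeks, without overlap (-0.86 ± 0.20, adjusted p = 0.0404). The call held without replicate 4 at 7 weeks and was lost in the other 7 fits that left out 1 library, with adjusted p up to 0.222. Fabp1 was at 3062, 3439.7, 3254 and 2990.1 CPM at 7 weeks, above every library of 16 weeks (-0.66 ± 0.17, adjusted p = 0.0766), and was called when DESeq2 was used (adjusted p = 0.0245) or only the 8 libraries compared (0.0108). Acaa1b (-0.57, adjusted p = 0.423) was called in the latter fit alone (0.0292). No thioesterase was called between 7 and 16 weeks. There was no wild-type group of 7 weeks, so their levels at that age were not compared with the wild type. Acot3 was measured at 56.1, 24.6, 28.9 and 23.5 CPM, Acot1 at 160.0, 73.8, 89.4 and 65.1 CPM and Acot5 at 53.8, 22.5, 31.0 and 22.7 CPM. Replicate 1 was the highest in each. It was the highest of its group for 34 of the 39 genes, and replicate 4 the lowest for 31, where over all genes tested the shares were 24.7% and 26.2%. Nudt7 at 7 weeks stood at 336, 465, 441 and 425 CPM (-0.50 ± 0.24 from 7 to 16 weeks, adjusted p = 0.482). Cpt1a at 7 weeks held 375, 295, 330.4 and 309.8 CPM, Acadm 311, 277, 274 and 263 CPM, and Ehhadh 359, 262, 239 and 216 CPM. Each of these overlapped the values of 16 weeks. Ppara was at 87.8, 68.7, 68.0 and 73.1 CPM and Bdh1 at 231, 239, 218 and 227 CPM. Pdk4 held 8.08, 1.38, 3.45 and 2.06 CPM at 7 weeks against 2.45, 4.33, 3.49 and 2.42 CPM at 16 weeks, and its log2 fold change of -0.24 became 0.49 without replicate 1 of 7 weeks.

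The response to restriction was read within each genotype at 16 weeks. The freely fed libraries were also those of the genotype comparison on free feeding. Those of the wild type also served the comparison of age, so these results are not independent. In the wild type 2 of the 39 genes were higher and 10 lower than on free feeding, with 6.3% higher and 7.3% lower of all genes tested. The medians were -0.17 and 0.04. With only the 8 libraries compared in the fit, 3 members were higher and 6 lower, and 986 genes were called in all in place of 1726. Albumin took 8.88% to 12.0% of counts against 6.42% to 7.72%, and mitochondrial genes 12.5% to 16.9% against 10.7% to 11.8%. Summed periportal markers stood at 102794 to 137397 CPM against 77816 to 97129 CPM, with 1 of 12 higher and 2 lower. Most of that sum was albumin, itself on the list, with means of 104393 CPM against 72137 CPM. Of 5 red cell markers 3 were lower (summed level 368 to 823 CPM against 1258 to 2287 CPM). Fat cell markers summed to 406 to 1566 CPM against 2756 to 4611 CPM (2 of 6 tested lower), and B and plasma cell markers to 1.71 to 3.47 CPM against 4.79 to 11.2 CPM (1 of 3 lower). Of 9 hepatocyte markers 1 was higher and 2 lower. Their part in the result was not tested.

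Ppara fell on restriction in the wild type, with every restricted library below every freely fed one (-1.08 ± 0.23, adjusted p = 0.0025). Fabp1 (-1.08 ± 0.17, adjusted p = 1.42e-04) and Acsl1 (-1.01 ± 0.20, adjusted p = 0.00149) were 2.11-fold and 2.01-fold lower. In both, restricted replicate 2 was the highest of its group. Cpt1a fell (-0.81 ± 0.21, adjusted p = 0.0109), by 0.57 without restricted replicate 3, and was not called when only the 8 libraries compared entered the fit (adjusted p = 0.0674). Hadh was the 1 gene of the mitochondrial spiral to fall (-0.36 ± 0.10), a call lost without freely fed replicate 1 (adjusted p = 0.0678). Acads (-0.29, adjusted p = 0.0948) passed without restricted replicate 1 (0.0427). In peroxisomes Ehhadh rose 2.44-fold (1.29 ± 0.23, adjusted p = 6.79e-04), every restricted library being above every freely fed one. Nudt7 (-1.33 ± 0.25), Acaa1b (-0.96 ± 0.25), Acaa1a (-0.83 ± 0.23) and Hsd17b4 (-0.35 ± 0.12) fell. Acaa1a lost its call without freely fed replicate 1 or restricted replicate 4 (adjusted p = 0.0708 and 0.054), and Acaa1b without freely fed replicate 1 (0.0565). Hsd17b4 lost it without freely fed replicates 1, 3 or 4 or restricted replicates 3 or 4 (up to 0.177). With only the 8 libraries compared in the fit Acaa1a (edgeR adjusted p = 0.1), Acaa1b (0.0792), Hsd17b4 (0.116) and Hadh (0.0857) lost their calls. Aldh3a2, not called in the main fit, passed in that fit (0.0381), with DESeq2 (0.0486) and without restricted replicate 2 (0.0473). Acot2 was the only thioesterase called (0.98 ± 0.31, adjusted p = 0.0388), and it lost the call in 6 of 8 fits that left out 1 library, all except those without restricted replicates 2 or 3 (adjusted p up to 0.124). Acot1 had 0.89 ± 0.31, adjusted p = 0.06, and passed without restricted replicate 3 (1.05, adjusted p = 0.0309) and with DESeq2 (adjusted p = 0.0293). Bdh1 fell to 98.2, 118, 122 and 99.8 CPM, below all freely fed libraries (-0.92 ± 0.16, adjusted p = 4.70e-04). Pdk4 held 4.18, 3.30, 6.87 and 21.4 CPM after restriction, and its log2 fold change of 1.56 ± 0.54 (adjusted p = 0.057) was 0.66 without replicate 4. It passed without restricted replicates 1 or 2 (1.80 and 1.84, adjusted p = 0.0372 and 0.0227) and with DESeq2 (adjusted p = 0.0185). Acadm was not called, with a log2 fold change of -0.07 ± 0.11 and an interval of -0.28 to 0.13.

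In the mutant 4 of the 39 genes were higher and 5 lower on restriction, with 4.91% higher and 6.33% lower of all genes tested and medians of -0.07 and 0.00. The split depended on the scaling. Upper-quartile scaling gave 6 members higher and 4 lower, and over all genes 777 higher and 663 lower in place of 623 and 803. Albumin took 8.14% to 9.98% of counts against 5.36% to 6.65%, mitochondrial genes 13.5% to 15.0% against 9.37% to 10.9%, and summed periportal markers stood at 86399 to 107121 CPM against 64988 to 77452 CPM (6 of 12 higher, 2 lower). Most of the periportal sum was again albumin, with means of 80619 CPM against 61091 CPM. Of 9 hepatocyte markers 1 was higher and 4 were lower. Fat cell markers summed to 530.3 to 864 CPM against 1892 to 2935 CPM (2 of 6 tested lower, 2 higher). Their part in the result was not tested.

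Fabp1 fell 3.16-fold in the mutant (-1.66 ± 0.17, adjusted p = 3.33e-07), to its lowest group mean, 638 ± 53.2 CPM. Acsl1 (-0.75 ± 0.20, adjusted p = 0.0143) and Slc27a2 (-0.47 ± 0.15, adjusted p = 0.045) fell too, but Slc27a2 kept its call in only 1 of the 8 fits that left out 1 library, that without restricted replicate 1 (adjusted p up to 0.13). Nudt7 showed the largest change of any member with diet, from 295 ± 59.9 to 44.4 ± 15.9 CPM, a 6.64-fold drop without overlap (-2.73 ± 0.26, adjusted p = 1.23e-07). Bdh1 fell to 85.9, 117, 165 and 159 CPM (-0.96 ± 0.16, adjusted p = 2.24e-04). Ehhadh rose, with no overlap (0.93 ± 0.23, adjusted p = 0.00957). Among the thioesterases Acot3 (1.58 ± 0.36, adjusted p = 0.00533), Acot5 (1.24 ± 0.32, adjusted p = 0.0144) and Acot4 (0.97 ± 0.31, adjusted p = 0.0477) rose. Acot5 lost the call without freely fed replicate 3 (1.14, adjusted p = 0.0526) or restricted replicate 4 (1.00, adjusted p = 0.0595). Acot4 kept it without restricted replicates 1 or 2 and lost it in the other 6 fits that left out 1 library (adjusted p up to 0.174). Acot1 (0.91 ± 0.31, adjusted p = 0.0636) and Acot2 (0.93 ± 0.31, adjusted p = 0.0577) missed the threshold and passed it without restricted replicate 2, at 1.16 and 1.17, and with DESeq2 (adjusted p = 0.0234 and 0.0202). That replicate was the lowest of its group for 28 of the 39 genes, and for 30.1% of all genes tested. Pdk4 held 3.33, 6.54, 12.8 and 12.8 CPM (1.48 ± 0.54, adjusted p = 0.0802), and passed without restricted replicate 1 (1.75, adjusted p = 0.0434) and with DESeq2 (adjusted p = 0.028). Neither Ppara (-0.09 ± 0.22, 95% interval -0.53 to 0.35) nor Cpt1a (-0.17 ± 0.21) was called.

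The diet comparisons of wild type and mutant share no library. Fabp1, Acsl1, Nudt7 and Bdh1 were called lower on restriction in both genotypes, where 347 of all genes tested (2.73%) were, and Ehhadh was called higher in both, where 152 (1.2%) were. The log2 fold changes with diet had the same sign in 27 of the 39 genes. Their Pearson correlation across the 39 genes was 0.81, and across all genes tested 0.57. Genes are not independent replicates and all share the same 16 libraries, so these figures are descriptions.

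**Figure D4:**
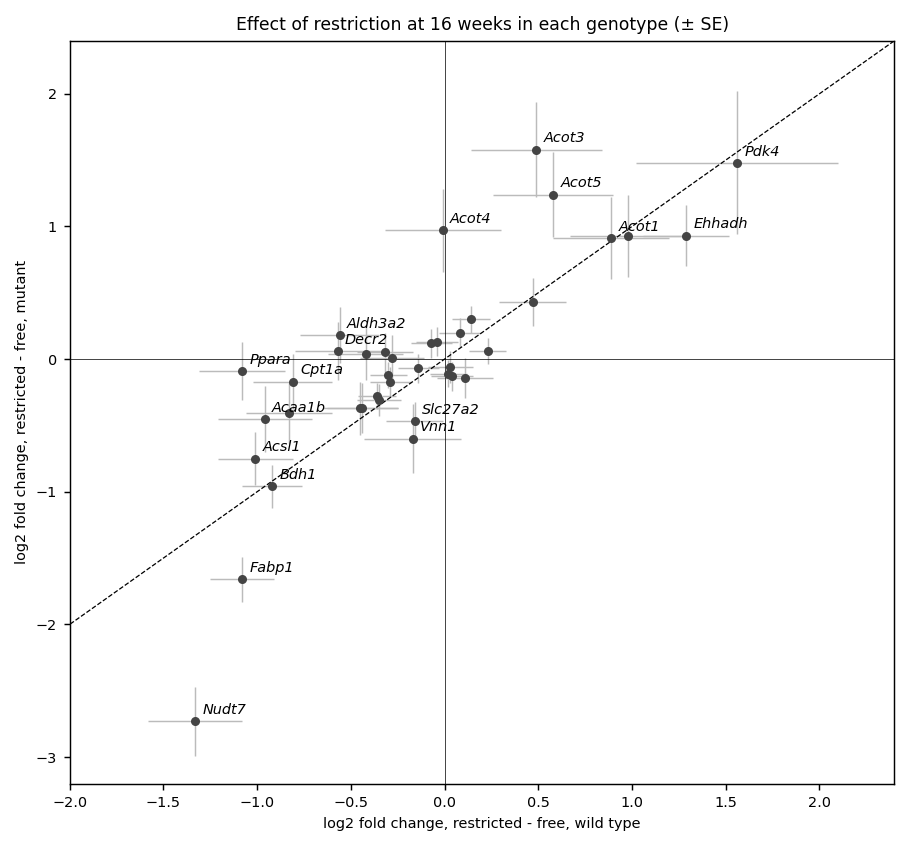
log2 fold change ± SE of restricted against freely fed liver at 16 weeks in the wild type (x axis) and the mutant (y axis) for the 39 genes, with a dashed line of equality. Fabp1, Acsl1, Nudt7 and Bdh1 lie low on both axes and Ehhadh high on both, and Nudt7 is farthest below the line.

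Whether diet acted differently in the genotypes was tested by their interaction. Nudt7 was the 1 gene of the 39 called, with a stronger fall in the mutant, against 0.591% of all genes tested called in that direction and 0.906% in the other. The difference in its log2 fold change was -1.40 ± 0.35 (adjusted p = 0.0408). The call was lost in 11 of the 16 fits that left out 1 library, with an adjusted p of up to 0.0973. It held without replicate 3 of the freely fed wild type, replicates 1 and 4 of the restricted wild type, replicate 2 of the freely fed mutant or replicate 3 of the restricted mutant. No other member passed. The estimates were 0.99 ± 0.32 for Ppara (adjusted p = 0.135), 1.08 ± 0.50 for Acot3 (adjusted p = 0.321), 0.99 ± 0.44 for Acot4 (adjusted p = 0.307), 0.64 ± 0.29 for Cpt1a (adjusted p = 0.316) and -0.58 ± 0.24 for Fabp1 (adjusted p = 0.259). For Ppara, which was called lower on restriction only in the wild type, a difference between the genotypes was therefore not shown. Bdh1 had -0.04 ± 0.23, with a 95% interval from -0.48 to 0.41. Over all genes the interaction gave 115 higher and 75 lower calls, and 145 and 57 with upper-quartile scaling.

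Across the 8 comparisons 5 members were called in none: Creb3l3, the carnitine octanoyltransferase Crot, the very-long-chain dehydrogenase Acadvl, the mitochondrial thiolase Acaa2 and the enoyl-CoA isomerase Eci2. Of these, Crot passed in old liver with DESeq2 (adjusted p = 0.0382), with upper-quartile scaling (0.0468) and without old replicate 3 (0.0153), and on restriction in the wild type without restricted replicate 2 (0.0207). Creb3l3 passed on that restriction without restricted replicate 1 (0.0418).

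The wider PPARalpha pathway, a list of 92 further genes that were all tested, moved with the members in part. The list was chosen with earlier results of these data known, so its counts are descriptions. In the freely fed mutant 22 of the 92 were lower and 3 higher, with a median of -0.37, where 4.85% of all genes tested were lower and 5.1% higher. Cyp4a14, a fatty acid omega-hydroxylase, averaged 82.0 ± 21.9 CPM against 539 ± 222 CPM (-2.72 ± 0.50, adjusted p = 0.00119). G0s2, an inhibitor of the lipase Pnpla2, and Abcd2, a peroxisomal fatty acid transporter, had -2.61 and -2.26. Acsl4 (1.45), the uncoupling protein Ucp2 (0.93) and the peroxisomal hydroxylase Phyh (0.59) were higher. In old wild-type liver 31 were lower and 2 higher (median -0.32), beside 5% and 5.13% of all genes tested, with the Cyp4a genes leading. Cyp4a14 went from 539 ± 222 to 12.7 ± 9.79 CPM (-5.41 ± 0.57, adjusted p = 3.53e-06), Cyp4a10 from 799.9 ± 269 to 34.0 ± 16.1 CPM (-4.56 ± 0.37) and Cyp4a31 from 383 ± 118 to 23.0 ± 7.55 CPM (-4.06 ± 0.32). The mutant at 16 weeks held more of all 3 than old liver, by 2.69, 3.42 and 3.02 on the log2 scale, and in that comparison 13 of the 92 were higher and 4 lower (7.47% and 7.19% of all genes tested).

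Between the restricted groups 14 of the 92 were higher and 13 lower in the mutant, with 9.58% higher and 8.7% lower of all genes tested and a median of -0.05 over the 92. Cd36, a fatty acid importer, averaged 123 ± 25.9 CPM against 15.4 ± 4.67 CPM (3.01 ± 0.38, adjusted p = 1.22e-05). Cidec, a protein of lipid droplets (2.16), and Pparg, the receptor related to Ppara (2.02), were higher too. Retsat, a retinol saturase (-1.94), Fgf21, a fasting hormone (-1.80), and Acot6 (-1.36) were lower. Levels of Fgf21 were low, at 1.08 ± 0.458 CPM against 3.67 ± 3.03 CPM, and widely spread in the wild type (edgeR adjusted p = 0.00849). Pparg was low as well, at 5.76 ± 0.903 CPM against 1.4 ± 0.412 CPM. In the interaction of diet and genotype 7 of the 92 were called, all higher (0.906% of all genes tested), led by Cd36 (3.89 ± 0.52), Pparg (3.20 ± 0.51) and Cidec (3.17 ± 0.65).

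Restriction raised 5 of the 92 and lowered 18 in the wild type, and raised 14 and lowered 10 in the mutant. The shares over all genes tested were 6.3% higher and 7.3% lower in the wild type, and 4.91% and 6.33% in the mutant. Cyp4a14 rose in both, to 1664 ± 476 CPM in the wild type (1.63 ± 0.48, adjusted p = 0.029) and to 970.2 ± 248 CPM in the mutant (3.56 ± 0.52, adjusted p = 8.52e-05). In the mutant its relative Cyp4a10 rose too, from 363 ± 88.0 to 1363 ± 364 CPM (1.91 ± 0.33, edgeR adjusted p = 0.000354). The relatives Cyp4a12a and Cyp4a12b went the other way. Cyp4a12a fell from 469.8 ± 87.6 to 20.2 ± 7.37 CPM in the wild type and from 179 ± 24.4 to 12.7 ± 3.72 CPM in the mutant. Cyp4a12b fell with it in both (log2 fold changes -4.09 and -3.46). From 7 to 16 weeks in the mutant 3 of the 92 fell (0.331% of all genes tested), namely Txnip (-1.89), Cyp4a12b (-1.50) and Cyp4a12a (-1.49). Txnip averaged 21.1 ± 3.46 CPM at 16 weeks against a widely spread 78.2 ± 58.1 CPM at 7 weeks (edgeR adjusted p = 0.0474).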

How the data were processed

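The files used were gene counts of polyadenylated liver RNA in 24 libraries, 4 in each of 6 groups set by genotype, age and diet in the labels. Per the submitters' processing notes, the authors used Trimmomatic 0.39, STAR 2.7.0f, featureCounts of Subread 1.6.4 and the build GRCm38.p6. The deposited values are raw counts per gene. For strand setting, reads with several matches and annotation release nothing is stated in the sources used here, so antisense or near-identical genes may share counts.

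Libraries held 13.3 to 20.6 M counts. All 22429 gene identifiers matched GENCODE M21, from which symbols, positions and exon lengths were taken, and 3497 genes had no count. After edgeR's filter on low counts (filterByExpr with groups) 12690 genes were fitted with TMM scaling, 6 group means over all libraries (18 residual degrees of freedom) and robust quasi-likelihood F-tests (edgeR 4.0.16, limma 3.58.1, R 4.3.3). Benjamini-Hochberg adjustment ran over all 12690 genes, and a gene was called at an adjusted p under 0.05. SE is the log2 fold change divided by the root of F. CPM use the TMM-scaled library sizes. Libraries of a group differed by more than sampling noise (chi-square per degree of freedom of at least 8.32), so none was a duplicate. No label says that replicate numbers pair the samples, and the main fit held no replicate block.

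Alternatives were DESeq2 1.42.0, its size factors in edgeR, upper-quartile scaling, no filter, only the libraries compared, a replicate block and leaving out each library. The members and gene lists were chosen with earlier results of these data known. All 39 members could be named. Values per library are given for the 2 called members with the largest change in each pairwise comparison within age, genotype or diet and for Ppara, Fabp1, Cpt1a, Acadm, Ehhadh, Bdh1 and Pdk4, and values of others are group means. From the wider pathway up to 3 called genes per direction are named.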

Additional observations from a re-analysis of the deposited data

Results flagged for a closer look

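In each group of 4 libraries the gap between the highest or lowest CPM and its nearest neighbour was divided by the group's range. It passed Dixon's critical value in 19 of the 234 groups examined (39 genes in 6 groups), where chance gives about 1 in 20. Replicate 2 of the freely fed wild type at 16 weeks was far below the others for Cpt2 (208 CPM), Acadm (329), Etfdh (332) and Acot5 (98.5). Replicate 2 of the restricted mutant was far below the others for Crat (35.1 CPM), Decr1 (138), Decr2 (72.2) and Acaa1b (281). In the mutant at 7 weeks replicate 4 was far below for Acads (147 CPM), Acaa2 (736) and Ech1 (236), and replicate 1 far above for Acot3 (56.1) and Acot4 (64.0). In the freely fed mutant at 16 weeks replicate 3 was far below for Acot3 (24.6 CPM) and replicate 1 far above for Vnn1 (35.7). In the restricted wild type replicate 2 was far above for Fabp1 (3543 CPM), replicate 1 far above for Hadhb (299.8) and far below for Vnn1 (30.0). Replicate 1 of the old wild type was far above for Ehhadh (239 CPM).

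The response of Nudt7 to restriction differed between mutant and wild type by -1.40 on the log2 scale in the test of that difference (edgeR adjusted p = 0.0408, which leaving out single libraries moved to between 0.0102 and 0.0973).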

How the results depend on the processing

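Of 114 calls of members over the 8 comparisons, 74 held under every alternative run. Of 1604 alternative values of called members, 1414 kept direction and call, 190 kept direction and lost the call, and 0 reversed. With only the libraries compared in the fit, the restricted comparison of genotype gave 0 members higher and 10 lower, restriction in the wild type 6 lower, the mutant at 16 against 7 weeks 3 lower, and the interaction of diet and genotype 0 lower. Over all genes this fit gave 2202 calls in place of 1262 for genotype on free feeding, 877 in place of 2320 under restriction, 568 in place of 87 for age in the mutant, 986 in place of 1726 for diet in the wild type and 126 in place of 190 for the interaction. DESeq2 gave 2 members lower in the mutant at 16 against 7 weeks, 4 higher on restriction in the wild type and 8 in the mutant, and 201 and 388 genes in all for age in the mutant and the interaction. Upper-quartile scaling and the fit with no filter each left 0 members in the interaction, and without the filter 1 member was higher on restriction in the wild type. The replicate block took the count for age in the mutant from 1 to 0 and otherwise left counts of members within 1.5 times. Samples with the same number deviated together with correlations from -0.21 to 0.30, and under the block genotype on free feeding gave 1323 genes in place of 1262. At most 3 libraries of a comparison correlated best with their own number.

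Leaving out each library in turn gave 0 to 1 members higher and 16 to 21 lower for genotype on free feeding, 1 to 2 and 16 to 23 under restriction, and 1 and 25 to 27 for age in the wild type. For age in the mutant it gave 0 and 0 to 1, for diet 1 to 4 and 6 to 14 in the wild type and 2 to 7 and 4 to 5 in the mutant, for the interaction 0 and 0 to 1, and for the mutant against old wild type 11 to 17 and 1. The cause of these shifts was not tested. Pdk4, at 31 counts over the old group, is the member that depth limits most.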
